A study of Homo sapiens with 16 samples.

Results

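YCC10 is an established EBV-positive human gastric cancer cell line. Its polyadenylated RNA was compared after siMYB, a small interfering RNA against MYB, and after siCtrl, the control siRNA of the same set. The comparison was chosen by its label: all 4 YCC10 libraries of the MYB knockdown set, 2 with siMYB and 2 with siCtrl, out of 16 libraries in the series, read across all genes. The siCtrl libraries carry the genotype label WT and the siMYB libraries the label MYB knockdown. Both groups were grown in EMEM with 10% fetal bovine serum, and both received an siRNA. For the siRNA, its sequence, dose and duration were not given in the sources used here. The same 2 treatments in SNU719, another gastric cancer line, grown in RPMI1640 (2 libraries per group), tested whether an effect differed between the lines. YCC10 libraries after siTCF7 (an siRNA against the transcription factor TCF7) with its own siCtrl, and after CRISPR interference (a catalytically dead Cas9 that blocks transcription) with the guide sgMYB-E3 or the control guide sgCtrl, hold 1 library per group and are given as values only. Each result rests on 1 line, and nothing says that the libraries of a group came from separate cultures, so the p-values measure only the spread between these libraries, which may be technical.

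MYB is a transcription factor with a DNA-binding domain of 3 repeats that keeps blood and intestinal progenitor cells dividing and holds back their maturation. Its relative MYBL2 (B-MYB) joins the MuvB complex and switches on genes of mitosis, while E2F factors switch on genes of DNA replication. In gastric epithelium mature cells make mucins, trefoil peptides and pepsinogens, and carcinomas mix these programs with intestinal ones.

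The unit throughout is FPKM, the fragments of a transcript divided by its length and by the mapped fragments of the library, as deposited by the authors. Counts of reads were not used, so the depth is unknown. The relative depth, read from the value that 1 fragment gives, was 1 and 1.13 in the siCtrl libraries and 0.768 and 1.15 in the siMYB libraries. Between 11176 and 11375 genes reached 1 FPKM per library. Replicates correlated across genes at 0.994 in both groups without short RNA genes, and at 0.924 and 0.915 with them. Short RNA genes stood apart by library number and not by group: of 252 such genes that reached 100 FPKM somewhere, 71.8% and 77.4% were listed at 0 in siCtrl 1 and siMYB 1, against 49.6% and 46.4% in siCtrl 2 and siMYB 2. Short RNA genes are left out of the named genes. Other genes also differed by library number. The differences between library 2 and library 1 correlated between siCtrl and siMYB at 0.711 without short RNA genes and at 0.438 with them. The cells looked epithelial in every library: 6 keratin, cadherin and junction markers summed to 6519 to 6569 FPKM with siCtrl and 5043 to 5201 FPKM with siMYB. Of 12 gastric markers 8 reached 1 FPKM, while CLDN18, MUC5AC, MUC6 and VSIG1 did not. None of 6 fibroblast, 4 endothelial or 5 B cell markers reached 1 FPKM.

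MYB (ENSG00000118513.18, chr6:135181315-135219173, plus strand, GRCh38) stood at 29.4 and 27.3 FPKM with siCtrl and 1.95 and 1.43 FPKM with siMYB. It fell by 3.45 log2 units (SE 0.11, adjusted p = 9.45e-05; limma with Benjamini-Hochberg adjustment, as for every adjusted p here), to 5.95% of control. With sgMYB-E3 it was 12.3 against 21.1 FPKM with sgCtrl, and with siTCF7 5.4 against 25.6 FPKM, so the siMYB libraries held the lowest MYB level of these 3 treatments in YCC10. Of 6 other tested genes near MYB on chromosome 6, 1 rose and 4 fell. SGK1, a kinase induced by serum and glucocorticoids, rose by 1.24 (from 9.55 and 9.33 FPKM to 24.8 and 22.7 FPKM). HBS1L, the ribosome rescue factor next to MYB, fell by 0.62, MTFR2, a regulator of mitochondrial shape, by 0.67 and MAP7, a microtubule-binding protein, by 0.52. With sgMYB-E3 these 4 neighbors gave 0.03, -0.14, 0.11 and 0.05.

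Among 12095 genes tested, 5056 (41.8%) changed: 1851 rose (15.3%) and 3205 fell (26.5%). A gene counted as changed when its adjusted p was under 0.05. Most changes were small, with a median size of 0.49 log2 units, and 201 genes rose (1.66%) and 249 fell (2.06%) by at least 1 unit. The groups did not overlap in 8354 genes (69.1%). With any 1 of the 4 YCC10 libraries left out, 2782 genes (23%) kept their call and had groups that did not overlap. They were 968 higher (8% of all tested genes) and 1814 lower (15%). Left out singly, siCtrl 1 gave 1173 rises and 2241 falls, siMYB 2 gave 1190 and 2323, siMYB 1 gave 1401 and 2321, and siCtrl 2 gave 1432 and 2326. How the changes split into rises and falls depended on scaling. Rises were 36.6% of the calls on FPKM as deposited, 53.5% after median-of-ratios scaling (2575 higher, 2240 lower) and 50.3% after quantile normalization (2193 higher, 2166 lower). The median log2 change of all tested genes was -0.07 as deposited, 0.01 after median-of-ratios scaling and 0 after quantile normalization. Falls were commonest among genes of middle abundance: 33.3% of genes at a mean of 20 to 100 FPKM fell, against 21.5% at 1 to 5 FPKM. Protein-coding genes changed in 44.4% of 10871 cases and long noncoding genes in 26.6% of 443.

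**Figure D1:**
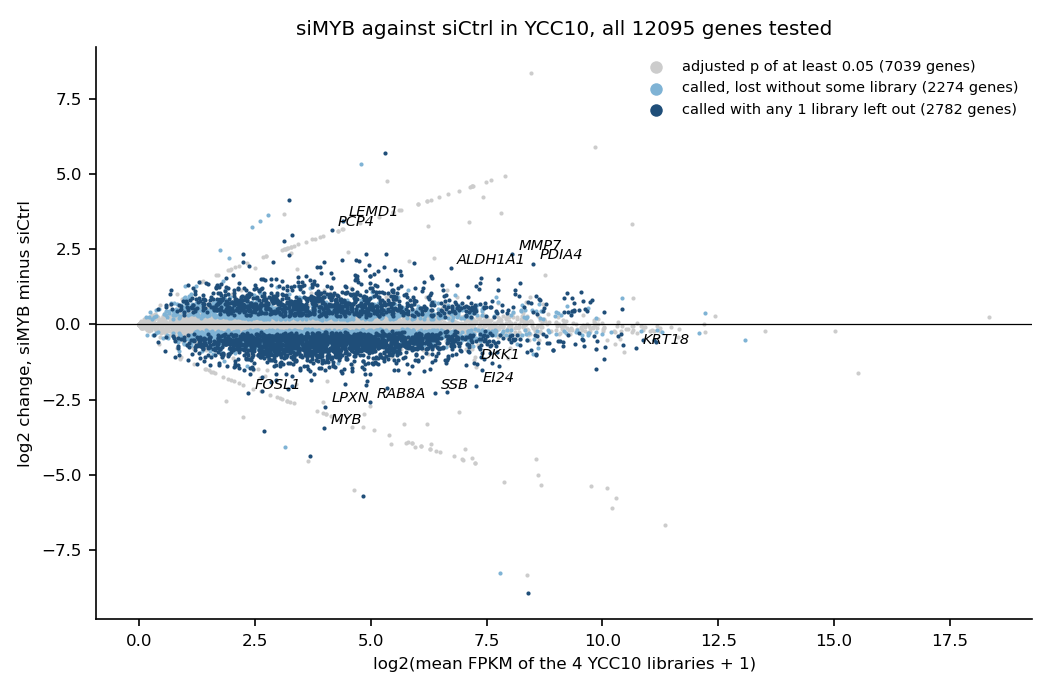
Log2 change (siMYB minus siCtrl) in YCC10 against log2 of the mean FPKM plus 1 over the 4 YCC10 libraries, 1 point per tested gene. Dark points passed the threshold also with any 1 YCC10 library left out and had groups that did not overlap (2782 genes). Light blue points passed with all libraries but did not meet this rule, for example because the call was lost without some library. Grey points did not pass, and the median of the cloud is -0.07.

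The largest rises were those of LEMD1, PCP4, REG1A and UGT2B15. LEMD1, a cancer-testis antigen, stood at 2.92 and 2.16 FPKM with siCtrl and 35.7 and 39.6 FPKM with siMYB and rose by 3.45 log2 units (SE 0.12, adjusted p = 9.45e-05). PCP4, a small calmodulin-binding peptide, rose from 2.87 and 2.44 FPKM to 30.1 and 32.2 FPKM (3.14, SE 0.11, adjusted p = 0.00011). In both genes each siMYB library was far above each siCtrl library. REG1A, a secreted lectin of regenerating gut epithelium, rose from 0.835 and 1.7 FPKM to 15.4 and 17.6 FPKM (2.97, SE 0.27, adjusted p = 0.000841). UGT2B15, which conjugates androgens for excretion, rose by 2.76; it stands on 2 rows of the table and is closely similar to UGT2B17, and its change was 2.32 on the higher row alone. These rises began from levels under 3 FPKM, where log2(FPKM + 1) understates a fold change.

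Genes with more RNA at the start rose as well. MMP7, the epithelial matrix protease matrilysin, stood at 86.2 and 88.4 FPKM with siCtrl and 443 and 445 FPKM with siMYB (2.33, SE 0.16, adjusted p = 0.000383). LOXL1, which cross-links elastin, rose from 7.81 and 9.72 FPKM to 46.7 and 50.6 FPKM, and NSMF, a protein that carries synaptic signals to the nucleus, from 11.8 and 12.8 FPKM to 61.9 and 70.3 FPKM. HABP2, a secreted serine protease that binds hyaluronan, rose by 2.14 and SULT1E1, which inactivates estrogens, from 9.72 and 8.44 FPKM to 43.8 and 40.8 FPKM. MUC7, a small salivary mucin, rose from 7.71 and 5.69 FPKM to 35.6 and 30.7 FPKM, FDCSP, a secreted peptide, by 2.30, and SERPINA3, the protease inhibitor alpha-1-antichymotrypsin, by 2.07. Of the 15 largest rises, 11 were also higher by at least 0.5 with siTCF7 and 6 with sgMYB-E3, each against its own single control. Of all tested genes 13.7% and 1.07% were. Across all tested genes, short RNA genes included, the siMYB log2 changes correlated at 0.25 with those of siTCF7. With those of sgMYB-E3 the correlation was -0.002. For comparison, MMP7 and HABP2 gave 2.58 and 2.55 with siTCF7, and 0.53 and 0.27 with sgMYB-E3. REG1A gave -0.47 and 0.91.

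**Figure D2:**
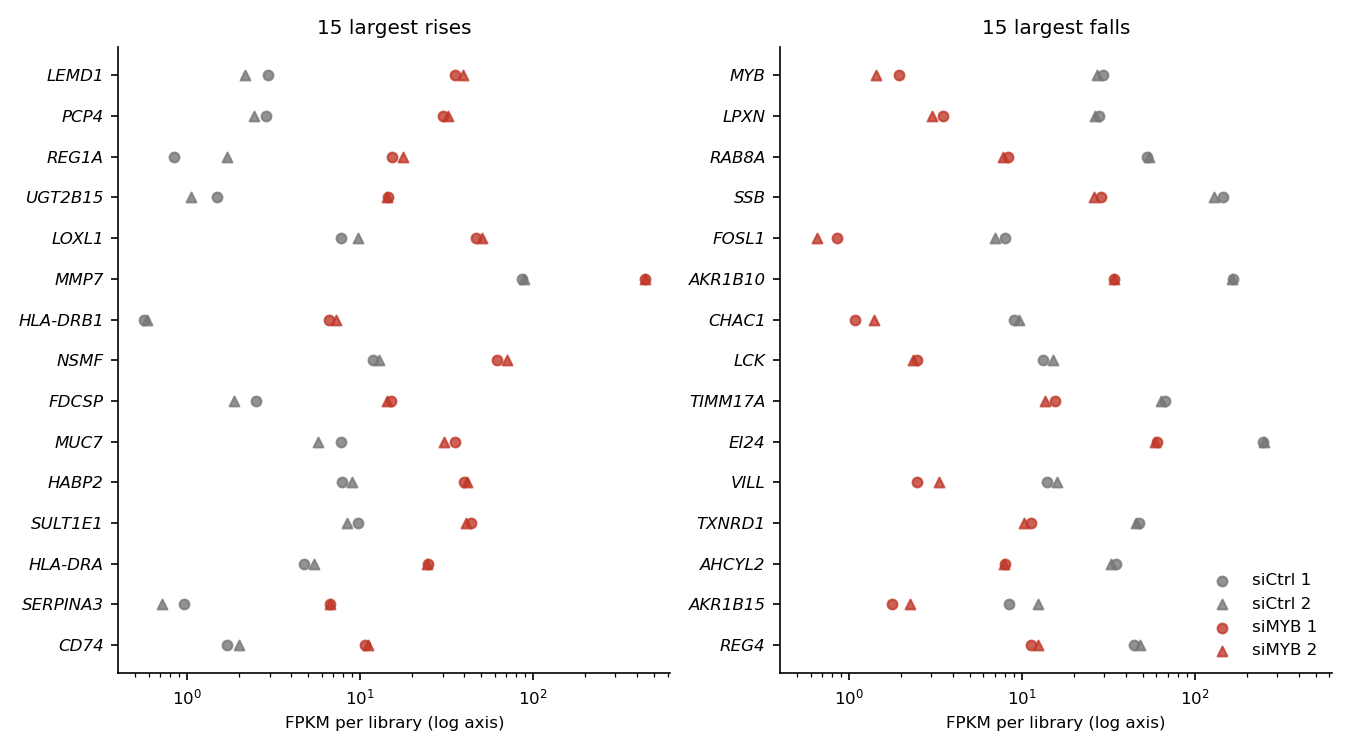
FPKM in each of the 4 YCC10 libraries (log axis) for the 15 genes with the largest rise and the 15 with the largest fall under the naming rule. The rule took only genes whose groups do not overlap. In all 30 genes the 2 siMYB points therefore lie on one side of the 2 siCtrl points. MYB falls from 29.4 and 27.3 to 1.95 and 1.43 FPKM.

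The largest falls after that of MYB were those of LPXN, RAB8A and SSB. LPXN, an adaptor of focal adhesions related to paxillin, stood at 27.8 and 26.5 FPKM with siCtrl and 3.49 and 3.02 FPKM with siMYB and fell by 2.73 (SE 0.077, adjusted p = 9.45e-05). RAB8A, a GTPase that steers vesicles to the cell surface, fell from 52.7 and 54.7 FPKM to 8.33 and 7.81 FPKM (-2.59, SE 0.069, adjusted p = 9.45e-05). SSB, the La protein that protects the ends of new RNA polymerase III transcripts, fell from 146 and 129 FPKM to 28.7 and 26.3 FPKM (-2.28, SE 0.11, adjusted p = 0.000152). In these 3 genes both siMYB libraries lay far below both siCtrl libraries. TIMM17A, part of the mitochondrial inner membrane translocase, fell from 67.7 and 63.5 FPKM to 15.6 and 13.6 FPKM, EI24, an endoplasmic reticulum protein linked to autophagy, from 247 and 251 FPKM to 60.6 and 59.1 FPKM, TXNRD1, which reduces thioredoxin, by 2.01, and AHCYL2, a relative of S-adenosylhomocysteine hydrolase, by 1.97. With sgMYB-E3 these 7 genes gave values between -0.27 (AHCYL2) and 0.19 (RAB8A), and with siTCF7 between -0.24 (RAB8A) and 0.37 (AHCYL2).

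These 7 genes were grouped here because, of the 15 largest falls, they are the ones that hold a certain short sequence. It lies in the 3′ untranslated region, the part of an mRNA that small RNAs usually pair with. FOSL1, AKR1B10, CHAC1 and LCK lack it and fell more than TIMM17A, EI24, TXNRD1 and AHCYL2. The word AAAGGAA was found by ranking all 7-base words on the siMYB effect in SNU719, without the YCC10 libraries: of 16100 words held by at least 50 genes, its genes had the lowest mean effect for their 3′ UTR length, scaled by its standard error. Ranked the same way on YCC10 siMYB it was again the lowest, while it ranked 1990 with YCC10 siTCF7 and 9301 with YCC10 sgMYB-E3. The following sites are from the GENCODE v29 3′ UTRs on GRCh38, written 5′ to 3′ as in the mRNA with T for U; capitals mark the word, with a T before it where there is one.
LPXN: tgagcaaaTAAAGGAActtctagac (chr11:58527307-58527331, minus strand)
RAB8A: tgttaaaccAAAGGAAagcacaaat (chr19:16132882-16132906, plus strand)
SSB: gggcttttaAAAGGAAaaccgaatt (chr2:169811814-169811838, plus strand)
TIMM17A: tttctattTAAAGGAAcaagcgggg (chr1:201969693-201969717, plus strand)
EI24: tcatatttcAAAGGAAtattgggtg (chr11:125584511-125584535, plus strand)
TXNRD1: ttgcttttTAAAGGAAgttattaat (chr12:104349436-104349460, plus strand)
AHCYL2: tttttcaaTAAAGGAAaattacgga (chr7:129429938-129429962, plus strand)
Outside the word the flanks differ from gene to gene. Since the siRNA sequence was not given, its relation to this word was not tested.

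Across all genes with a 3′ UTR to search, the word went with lower RNA after siMYB. Of 10790 genes 2741 (25.4%) held it; their median log2 change was -0.18 and 39.1% of them fell, against -0.04 and 24.6% for the 8049 genes without it. The medians were -0.16 with 1 copy, -0.21 with 2 and -0.24 with 3 or more (309 genes, of which 44.7% fell). In SNU719 with siMYB, where the word was found after allowing for 3′ UTR length, the medians were -0.09, -0.07 and -0.05 for these classes and -0.06 for genes without the word. In YCC10 the 768 genes with a T before the word had a median of -0.24 and 44.5% fell. Long 3′ UTRs hold more words, so the split was repeated within 3 classes of length, each with about the same number of genes. In the shortest class the 198 genes with the word had a median of -0.38 and 54.5% fell, against -0.07 and 24.9% of 3401 genes without it. In the longest class the medians were -0.14 and -0.02. With sgMYB-E3 the medians of genes with and without it were 0.01 and 0.00, and with siTCF7 -0.01 and 0.02. Among the 15 largest falls 7 hold the word and among the 15 largest rises 1 does. MYB itself does not hold it in the searched 3′ UTR. For the larger gene groups, counts are therefore also given for members without the word.

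**Figure D3:**
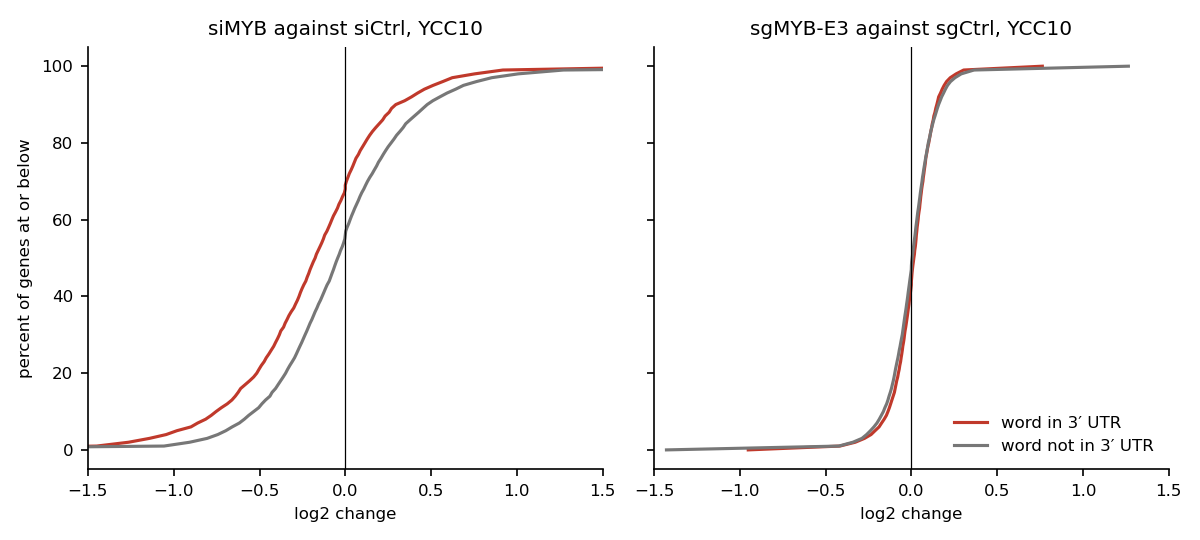
Cumulative share of genes (percent, y axis) at or below each log2 change (x axis) in YCC10, for genes with and without AAAGGAA in the 3′ UTR, after siMYB (one panel) and after sgMYB-E3 (the other). After siMYB the curve of genes with the word lies to the left (medians -0.18 and -0.04); after sgMYB-E3 the curves nearly coincide (0.01 and 0.00).

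The other large falls lack the word. FOSL1, an AP-1 subunit, fell from 7.99 and 6.97 FPKM to 0.857 and 0.657 FPKM (-2.27, SE 0.1, adjusted p = 0.000152). LCK, a Src family kinase best known from T cells, fell from 13.3 and 15.1 FPKM to 2.48 and 2.36 FPKM (-2.15, SE 0.099, adjusted p = 0.000152). None of 7 other T and NK cell markers reached 1 FPKM in any YCC10 library; CD3D, CD3G, CD2 and PTPRC were listed at 0 throughout. AKR1B10, an aldo-keto reductase of retinal and lipid aldehydes, stood at 166 and 165 FPKM with siCtrl and 34.2 and 34.2 FPKM with siMYB (-2.24, SE 0.058, adjusted p = 9.45e-05), and its neighbor and close copy AKR1B15, whose reads may be shared with it, fell by 1.90. VILL, a relative of the actin-severing protein villin, fell by 2.04 and REG4, a secreted lectin of enteroendocrine and goblet cells, from 44.4 and 48.4 FPKM to 11.4 and 12.3 FPKM. CHAC1, which degrades glutathione, fell from 9.01 and 9.58 FPKM to 1.08 and 1.39 FPKM (-2.21, SE 0.13, adjusted p = 0.00026). With sgMYB-E3 the values were -1.35 for CHAC1, -0.75 for LCK, -0.65 for REG4, -0.62 for AKR1B10, -0.45 for AKR1B15, -0.20 for VILL and 0.26 for FOSL1. With siTCF7 they were -1.87 for AKR1B10, -1.30 for AKR1B15, -1.25 for CHAC1, -0.07 for LCK, 0.18 for FOSL1, 0.62 for VILL and 1.23 for REG4. Of the 15 largest falls, MYB included, 4 were lower by at least 0.5 with siTCF7 and 5 with sgMYB-E3, against 1790 and 181 of all 12095 tested genes.

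Of 53 genes for origin licensing and the replication fork 48 fell and 0 rose, with a median of -0.68 log2 units against -0.07 for all tested genes; 43 fell also with any 1 YCC10 library left out. PRIM1, the primase that starts each DNA strand, stood at 26.3 and 24.7 FPKM with siCtrl and 9.43 and 8.86 FPKM with siMYB (-1.39, SE 0.06, adjusted p = 0.00015). RPA3, a subunit of the single-strand DNA binding protein, fell by 1.39, MCM10, which helps start the helicase, by 1.28, CDC7, the kinase that fires origins, by 1.16 and CDT1, which loads the helicase, by 1.08. In PRIM1 the groups are far apart, though the naming rule took only genes whose groups do not overlap. Of 29 genes for nucleotide and one-carbon synthesis 24 fell and 0 rose (median -0.61). TYMS, which makes thymidylate, stood at 141 and 137 FPKM with siCtrl and 55.2 and 56.6 FPKM with siMYB (-1.30, SE 0.044, adjusted p = 9.45e-05), RRM2, the ribonucleotide reductase subunit of S phase, fell by 1.18 and MTHFD2, the mitochondrial folate enzyme, by 1.24. In a bulk sample fewer cells in S phase and less RNA per cell cannot be told apart.

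Of 27 genes for repair by recombination 23 fell and 0 rose (median -0.62), 16 of them also with any 1 library left out. EXO1, which resects DNA ends, fell from 12.8 and 12.9 FPKM to 5.3 and 5.65 FPKM (-1.09, SE 0.052, adjusted p = 0.000156) and BRCA1, which guides recombination, by 1.05. Of 14 E2F and RB genes 10 fell and 0 rose (median -0.57). CCNE2, a cyclin of the G1 to S step, fell by 1.10, E2F1, the activator of S phase genes, by 0.88, EZH2, the histone H3 lysine 27 methyltransferase, by 0.95 and SKP2, which marks p27 for destruction, by 0.76.

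Mitosis genes fell too. Of 38 mitotic kinases, cyclins and anaphase regulators 35 fell and 0 rose (median -0.58), and of 60 genes for the kinetochore, spindle and cytokinesis 51 fell and 0 rose (median -0.65); 27 and 45 of them fell also with any 1 YCC10 library left out. CDCA3, which triggers mitotic entry, stood at 22.4 and 25.5 FPKM with siCtrl and 7.74 and 9.09 FPKM with siMYB (-1.41, SE 0.11, adjusted p = 0.000504). SPC25, a subunit of the NDC80 kinetochore complex, fell from 27.6 and 24.5 FPKM to 9.13 and 9.37 FPKM (-1.40, SE 0.094, adjusted p = 0.000341). HMMR, a spindle protein, fell by 1.26, SMC4, a condensin subunit, by 1.26, HJURP, which places the centromere histone, by 1.08 and DLGAP5, a spindle assembly factor, by 1.01. After median-of-ratios scaling 1 member of each of these lists passed as higher, and the medians were -0.46 and -0.55.

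Without the word AAAGGAA in their 3′ UTR, 43 of 47 replication genes, 16 of 21 nucleotide genes and 12 of 16 recombination genes fell. So did 29 of 32 mitotic genes and 43 of 49 kinetochore and spindle genes. The medians of the members without the word were -0.67, -0.53, -0.62, -0.56 and -0.66 in this order. Of the members named above, RPA3, CDC7, TYMS, RRM2, MTHFD2, BRCA1, CDCA3 and HMMR hold the word. Within library number 1 alone (siMYB 1 minus siCtrl 1) the 5 list medians lay between -0.68 and -0.57, and within number 2 between -0.68 and -0.59. In YCC10 with siTCF7 the medians were -1.26, -0.72, -1.38, -1.69 and -1.56, and 52 of 53, 29 of 29, 27 of 27, 37 of 38 and 60 of 60 members lay below 0. With sgMYB-E3 they were 0.08, 0.00, 0.06, 0.03 and 0.04. In SNU719 with siMYB they were -0.38, -0.32, -0.31, -0.40 and -0.38.

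The promoters of these genes hold 2 motifs known from cell cycle control. The windows searched are 250 bases before to 50 bases after the start, from RefSeq on GRCh38.p14, and 9207 tested genes had one. The CHR element (TTTGAA or TTCGAA, either strand), which MuvB complexes bind, occurred in 38 of 54 kinetochore and spindle promoters (70.4%) and 19 of 29 mitotic ones (65.5%), against 11.3% of all. An E2F site (TTTGGCGC, TTTCCCGC, TTTCGCGC or TTTGCCGC, either strand) occurred in 19 of 43 replication promoters (44.2%), against 5.83% of all. Shown are 30 bases in the gene's direction for 3 mitosis genes and 1 licensing gene, with each match in capitals; in CDT1 it reads on the other strand.
SPC25: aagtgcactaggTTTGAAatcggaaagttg (chr2:168890416-168890445, minus strand)
CDCA3: cgtggcgggaagTTTGAAactggtaacttc (chr12:6851272-6851301, minus strand)
HMMR: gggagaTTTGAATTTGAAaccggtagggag (chr5:163460598-163460627, plus strand)
CDT1: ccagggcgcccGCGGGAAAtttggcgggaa (chr16:88803743-88803772, plus strand)
The motif begins 3 bases before the annotated start in SPC25 and CDCA3, 22 before in HMMR (where another match directly precedes it) and 35 before in CDT1. The core MYB motif (CAACTG and its variants with T for the initial letter and with GG for the final TG, either strand) occurred in 26.0% of the promoters of genes that fell, 21.8% of those that rose and 24.0% of all. By list the MYB motif occurred in 41.7% of recombination, 31.5% of kinetochore and spindle and 31.0% of mitotic promoters. It occurred in 16.0% of nucleotide and 9.3% of replication promoters. Over all genes that fell, CHR occurred in 14.2% of promoters and an E2F site in 8.0%. A match is a run of letters and does not show that a factor binds.

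Regulators of these programs fell in part. Of 15 genes of the MYB family and the MuvB complex 8 fell, MYB itself included, and 2 rose (median -0.38). Beside the list counts of this paragraph, 26.5% of all tested genes fell and 15.3% rose. Of the 9 members without the word AAAGGAA 5 fell, and TFDP1 and E2F4 hold it. MYBL2 stood at 109 and 122 FPKM with siCtrl and 48.1 and 51.3 FPKM with siMYB (-1.20, SE 0.086, adjusted p = 0.000419), FOXM1, which drives G2 and M phase genes, fell by 0.68, TFDP1, the partner of E2F factors, by 0.68 and E2F4, a repressor E2F, by 0.84. The MuvB subunits LIN37 (-0.13, adjusted p = 0.664) and LIN52 (0.08, adjusted p = 0.24) did not pass, but LIN52 passed as higher after median-of-ratios scaling (0.19, adjusted p = 0.0255) and quantile normalization (0.17, adjusted p = 0.0492). Among 17 genes described elsewhere as MYB targets 10 fell and 1 rose (median -0.31), or 3 rose after median-of-ratios scaling. MYC, one of them, stood at 62.2 and 66.3 FPKM with siCtrl and 51.1 and 52 FPKM with siMYB; its value of -0.31 (adjusted p = 0.011) was past the threshold here, but not with each library left out or after median-of-ratios scaling (-0.19, adjusted p = 0.0657) or quantile normalization (-0.18, adjusted p = 0.135). BCL2, another, was at 2.05 and 2.62 FPKM with siCtrl and 1.98 and 2.14 FPKM with siMYB and did not pass (-0.12, adjusted p = 0.431).

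G1 regulators were mixed, beside 15.3% of all tested genes higher and 26.5% lower. Of 16 G1 genes 4 rose and 6 fell; with any 1 YCC10 library left out 2 rose and 3 fell, and after quantile normalization 3 fell. CCND3, a D-type cyclin, rose from 6.98 and 7.62 FPKM to 24 and 28.3 FPKM (1.71, SE 0.092, adjusted p = 0.000204), and CDKN1A, the inhibitor p21, rose from 131 and 154 FPKM to 201 and 228 FPKM (0.58). The CDK4 and CDK6 inhibitors CDKN2D and CDKN2C fell by 1.18 and by 0.57. CCND1 (0.12, adjusted p = 0.0658) and CDKN1B (-0.16, adjusted p = 0.149) did not pass. CCND1 passed as higher after median-of-ratios scaling (0.25, adjusted p = 0.00914) and with no filter on low values (adjusted p = 0.0462). With a replicate block, a term for the library number in the fit, CCND1 passed as higher and CDKN1B as lower.

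**Figure D4:**
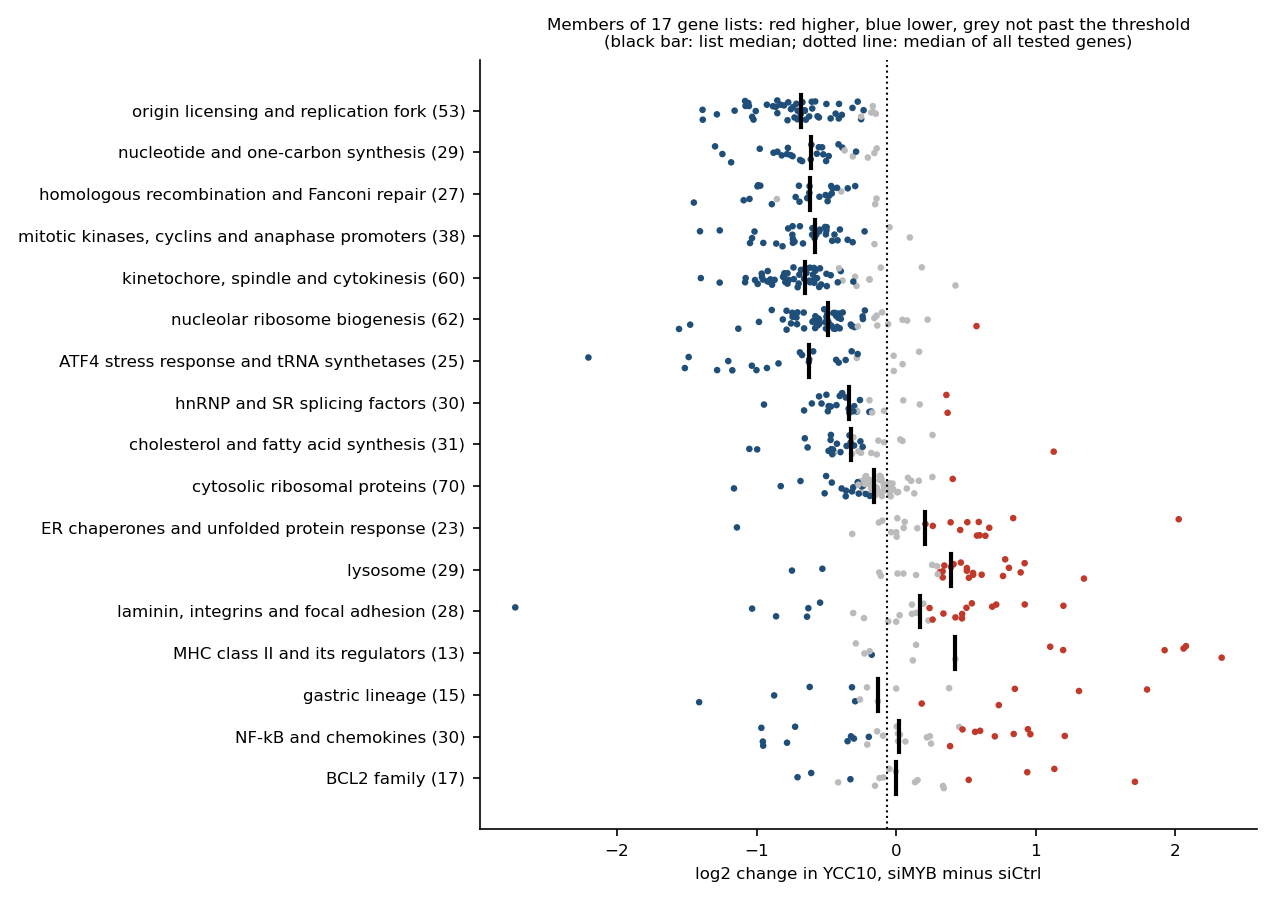
Log2 change in YCC10 for each tested member (points) of 17 gene lists, with the list's size in brackets; red points rose, blue points fell and grey points did not pass, bars are list medians and the dotted line is the median of all tested genes. Replication, mitosis and nucleolar lists lie to the left (medians -0.68 to -0.49) and the lysosome list to the right (0.39).

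Genes that build ribosomes in the nucleolus fell: 52 of 62 lower and 1 higher, with a median of -0.49, and 37 lower with any 1 YCC10 library left out. EBNA1BP2, a large subunit assembly factor, stood at 103 and 107 FPKM with siCtrl and 33.3 and 36.6 FPKM with siMYB (-1.56, SE 0.091, adjusted p = 0.000247). RRP1B fell by 1.48, NOB1, the nuclease that finishes 18S rRNA, by 1.13, DDX21, a helicase of rRNA transcription, by 0.98 and NOP14, a small subunit factor, by 0.89. Of the 47 members without the word AAAGGAA 38 fell. The list median was -0.30 with siTCF7 and -0.01 with sgMYB-E3. Of 70 ribosomal proteins themselves 17 fell and 1 rose (median -0.16), against 26.5% and 15.3% of all tested genes. Only 10 fell after median-of-ratios scaling and 5 after quantile normalization, and 8 with any 1 library left out, while a replicate block gave 43 or 45. RPL12, a protein of the ribosome stalk base, fell from 1424 and 1472 FPKM to 639.7 and 653 FPKM (-1.16), the largest change of that list.

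The ATF4 program of amino acid supply also fell, in 20 of 25 genes with 0 higher (median -0.63; 17 with any 1 YCC10 library left out; 16 of 21 without the word AAAGGAA). ATF4 is the factor made when amino acids run short or the endoplasmic reticulum is stressed, and its targets make serine, import amino acids and charge tRNAs. CHAC1 led the list. PSAT1 and PSPH, of serine synthesis, fell from 117 and 109 FPKM to 40.9 and 38.4 FPKM (-1.49, SE 0.062, adjusted p = 0.00014) and from 23.5 and 22.4 FPKM to 7.45 and 7.32 FPKM (-1.51). SLC7A11, the cystine importer, fell by 1.28, SLC1A5, the glutamine importer, by 0.92 and LARS1, the leucyl-tRNA synthetase, by 1.20. DDIT3, the factor CHOP, was past the threshold at -0.69 (adjusted p = 0.0102) but not with each library left out. Of all lists with at least 5 tested members this one had the lowest median with sgMYB-E3 (-0.52, with 23 of 25 members below 0); with siTCF7 it was -0.32, and in SNU719 with siMYB -0.28. With sgMYB-E3 the values were -0.71 for PSAT1, -0.67 for PSPH, -0.81 for SLC7A11, -0.68 for the ATF4-regulated MTHFD2 and -0.74 for DDIT3, from 1 library against 1. A CARE element (TGATGCAA or TGATGAAA, either strand), the site of ATF4, occurred in 7 of 21 promoters of the list (33.3%), against 0.891% of all; the one of CHAC1 lies 209 bases before its start and reads on the other strand.
CHAC1: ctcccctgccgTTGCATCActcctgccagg (chr15:40953251-40953280, plus strand)

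In other housekeeping lists most called genes were lower, and the counts changed with scaling or with single libraries. Of all 12095 tested genes 26.5% fell and 15.3% rose, and 15% fell with any 1 YCC10 library left out. After median-of-ratios scaling 2240 of them fell, and after quantile normalization 2166. Of 30 hnRNP and SR splicing factors 22 fell and 2 rose (median -0.34), against 14 lower after median-of-ratios scaling, 10 after quantile normalization and 11 with any 1 library left out. HNRNPA3, an RNA-binding protein of splicing, fell by 0.95 and SRSF1, a splicing enhancer protein, by 0.66. Of 31 proteasome genes 16 fell and 0 rose (10 with any 1 library left out), PSMD6 and PSMD1 by 0.63 and 0.58. Among 25 heat shock chaperones 12 fell and 1 rose (0 with any 1 library left out); the chaperonin subunit CCT2 fell by 0.70 and HSPA8, the constitutive HSP70, by 0.57. DNA methylation genes had 8 of 15 lower and 1 higher (5 lower after either scaling and with any 1 library left out, which left 0 higher), with the maintenance methyltransferase DNMT1 and its guide UHRF1 falling by 0.70 and by 0.66.

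Metabolic genes fell in part, beside 26.5% of all tested genes lower and 15.3% higher. Of 31 genes for cholesterol and fatty acid synthesis 18 fell and 1 rose, 8 lower with any 1 library left out. INSIG1, the sterol-regulated brake, fell by 1.00 and HMGCS1, an early enzyme of the path, by 0.47, while FADS2, a fatty acid desaturase, rose by 1.13. Of 29 glycolysis and hypoxia genes 11 fell and 3 rose (7 and 2 with any 1 library left out), and 6 rose after median-of-ratios scaling. LDHA, which turns pyruvate into lactate, fell from 517 and 486 FPKM to 261 and 243 FPKM (-0.99, SE 0.064, adjusted p = 0.00031), and PFKP, a phosphofructokinase, by 1.12; PDK1, which keeps pyruvate out of mitochondria, rose by 0.98. Of 39 nuclear genes of the respiratory chain 6 rose and 3 fell, but with any 1 library left out 2 rose and 0 fell, with YCC10 libraries alone in the fit 0 fell, and after median-of-ratios scaling 10 rose and 0 fell (10 and 1 after quantile normalization). NRF2 targets and aldo-keto reductases split, 6 of 28 higher and 8 lower, with 5 lower after median-of-ratios scaling, with YCC10 libraries alone and with any 1 library left out. ALDH1A1, which makes retinoic acid, rose from 45.6 and 42.9 FPKM to 169 and 163 FPKM (1.89, SE 0.059, adjusted p = 9.45e-05) and AKR1C3, a steroid reductase, by 1.61, against the falls of AKR1B10 and TXNRD1.

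Lysosome genes, which digest material inside cells, rose in 19 of 29 cases and 2 fell, with a median of 0.39, and 11 rose with any 1 YCC10 library left out. NPC2, which moves cholesterol out of lysosomes, rose from 286 and 296 FPKM to 505 and 517 FPKM (0.81, SE 0.044, adjusted p = 0.00021), and the membrane proteins LAMP2 and CD63 by 0.92 and 0.89. CTSH, a cathepsin, rose by 0.78 while CTSB, another, fell by 0.53 (from 119 and 129.5 FPKM to 81.8 and 89.9 FPKM). None of the 23 members without the word AAAGGAA fell. The CLEAR motif (TCACGTGA), bound by TFEB, occurred in 5 of 20 lysosome promoters, against 2.1% of all. The median was 0.38 with siTCF7, 0.02 with sgMYB-E3 and 0.13 in SNU719 with siMYB.

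Chaperones of the endoplasmic reticulum rose in 12 of 23 cases, with 1 lower and a median of 0.21 (7 higher with any 1 library left out). PDIA4, a disulfide isomerase, stood at 138 and 147 FPKM with siCtrl and 564 and 602 FPKM with siMYB (2.03, SE 0.06, adjusted p = 9.45e-05), with every siMYB value over 3 times every siCtrl value. HSPA5 (BiP), the main chaperone, rose from 285 and 282 FPKM to 506 and 509 FPKM (0.84, SE 0.054, adjusted p = 0.000311), MANF, a stress-induced secreted protein, by 0.59 and the sensor ATF6 by 0.64. EDEM1, which hands misfolded proteins to degradation, fell by 1.14. XBP1 (-0.03, adjusted p = 0.611) and DNAJB9 (0.05, adjusted p = 0.839), both tied to the IRE1 sensor, did not pass. The ERSE motif (either strand), bound by ATF6, occurred in 6 of 22 promoters of the list (27.3%), against 0.141% of all. The one in HSPA5 begins 66 bases before its start.
HSPA5: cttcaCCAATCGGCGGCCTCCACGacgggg (chr9:125241385-125241414, minus strand)

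MHC class II genes present peptides to helper T cells and are usually silent in epithelium until interferon gamma acts. They rose in 6 of 13 cases, all 6 also with any 1 YCC10 library left out. Of all tested genes 15.3% rose, and 8% with any 1 YCC10 library left out. With the filter set to a mean of at least 5 FPKM, 3 members passed as higher. LGMN, a protease of the same compartment, was the only member past the threshold on the lower side, at -0.17 (adjusted p = 0.0305), and did not pass after either scaling. CD74, the invariant chain, stands on 1 row and was at 1.71 and 2 FPKM with siCtrl and 10.7 and 11.1 FPKM with siMYB. HLA-DRA, the alpha chain of HLA-DR, rose from 4.74 and 5.45 FPKM to 24.8 and 24.5 FPKM (2.08, SE 0.14, adjusted p = 0.000315), and HLA-DMA, which loads peptides, from 5.12 and 4.81 FPKM to 20.5 and 22.8 FPKM (1.92). HLA-DRB1, the beta chain, rose from 0.56 and 0.586 FPKM to 6.6 and 7.26 FPKM (2.33). The naming rule took only genes whose groups do not overlap, so all siMYB values were above all siCtrl values in these genes. The HLA symbols stand on 7 or 8 rows, and reads can be split among alternative haplotypes and HLA-DRB paralogs, so their size is uncertain: on the highest row alone HLA-DRA changed by 1.42, HLA-DMA by 1.33 and HLA-DRB1 by 0.36. CIITA, the class II coactivator, rose from 1.14 and 1.44 FPKM to 4.05 and 4.44 FPKM. B cell markers summed to 0.551 to 0.631 FPKM with siCtrl and 0 to 0.315 FPKM with siMYB. Of 5 myeloid markers LYZ stood at 4317.1 and 3917.5 FPKM with siCtrl and 5491.1 and 5136.1 FPKM with siMYB. Those other than LYZ summed to 3.69 to 4.22 FPKM with siCtrl and 4.84 to 6.11 FPKM with siMYB. Nearly all of this was CD68, and CSF1R and CD14 stayed under 0.12 FPKM. The list median was 0.56 with siTCF7, 0.14 with sgMYB-E3 and -0.23 in SNU719 with siMYB.

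Class I and interferon genes moved both ways, beside 15.3% of all tested genes higher and 26.5% lower. Of 19 class I genes 7 rose and 4 fell; with any 1 library left out 3 rose and 2 fell, and with YCC10 libraries alone 4 rose. B2M, the shared light chain, rose from 208 and 193 FPKM to 394 and 374 FPKM (0.94, SE 0.078, adjusted p = 0.000632) and TAPBP, the loading bridge tapasin, by 0.72, while TAP2, a peptide pump, fell by 0.65 over 8 rows (-0.35 on the highest row). Of the heavy chains HLA-E rose by 0.43. HLA-B (0.26, adjusted p = 0.427) did not pass, but passed as higher with a replicate block within each line (adjusted p = 0.01275) or shared (adjusted p = 0.00431). Among 23 interferon-stimulated genes 6 rose and 4 fell; with any 1 library left out 3 rose and 3 fell, and after median-of-ratios scaling 11 rose. IFITM3, a membrane barrier to viruses, rose from 389.8 and 389 FPKM to 798 and 826 FPKM (1.06, SE 0.042, adjusted p = 0.000131), IFITM1 by 1.07 and OAS1, an RNA sensor, by 0.50. USP18, which restrains the interferon receptor, fell by 1.27 and OASL by 0.74.

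Gastric genes also split, 5 of 15 higher and 5 lower, or 3 lower after either scaling. For all tested genes the shares were 15.3% higher and 26.5% lower. PGC, a pepsinogen, rose from 18.9 and 20.3 FPKM to 69.6 and 71.9 FPKM and MUC1, a membrane mucin, from 62.5 and 69.5 FPKM to 155 and 175 FPKM (1.31, SE 0.13, adjusted p = 0.00108). ANXA10, a gastric annexin, rose by 0.85. TFF1, the trefoil peptide of surface cells, fell from 40.7 and 38.8 FPKM to 12.1 and 16.9 FPKM (-1.41, SE 0.22, adjusted p = 0.00441), and CAPN8, a calpain of pit cells, by 0.87. The trefoil peptide of gland cells, TFF2 (0.38, adjusted p = 0.122), and the lineage factor GATA4 (-0.13, adjusted p = 0.317) did not pass. TFF1 was also lower with sgMYB-E3 (-1.09), as was TFF2 (-1.27). Of 13 intestinal genes 4 rose and 3 fell: SPINK4, a goblet cell peptide, rose from 80.5 and 88.7 FPKM to 242 and 249 FPKM (1.53) and MUC13, a membrane mucin, by 1.10, whereas REG4 and VIL1 (villin) fell by 1.88 and by 0.64.

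Stem and epithelial genes showed no common direction, beside 15.3% of all tested genes higher and 26.5% lower. Of 16 stem and progenitor markers 5 rose and 4 fell. LGR5, the R-spondin receptor of stem cells, rose from 14.9 and 14 FPKM to 26.3 and 23.3 FPKM (0.74, SE 0.086, adjusted p = 0.00167), and ZNRF3, which removes WNT receptors, by 0.59, while its relative RNF43 fell by 0.56. SOX9 (-0.04, adjusted p = 0.518) and CD44 (0.18, adjusted p = 0.0845) did not pass, but CD44 passed as higher after median-of-ratios scaling (0.30, adjusted p = 0.0245) and without either SNU719 siMYB library (adjusted p = 0.0286 and 0.0279). Of 33 genes for junctions and keratins 8 rose and 11 fell; 14 rose after median-of-ratios scaling and 7 fell after quantile normalization. KRT18, a keratin of simple epithelium, fell from 2160.3 and 2132 FPKM to 1247 and 1263 FPKM (-0.77, SE 0.044, adjusted p = 0.000238; adjusted p = 0.0644 after quantile normalization); CLDN1 and SPINT1 rose by 0.73 and 0.72. KRT19 did not pass (0.08, adjusted p = 0.292), but passed as higher after median-of-ratios scaling (0.20, adjusted p = 0.0153). Of 7 tested mesenchymal genes SNAI1, a repressor of E-cadherin, and TGFBR2, the TGF-beta receptor, fell by 0.94 and by 0.77, and TGFB2 rose by 0.67.

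Contacts with the matrix changed by gene, beside 15.3% of all tested genes higher and 26.5% lower. Of 28 laminin, integrin and focal adhesion genes 12 rose and 6 fell. ITGA3, a laminin receptor chain, rose from 26 and 30.8 FPKM to 63 and 69.7 FPKM (1.20, SE 0.11, adjusted p = 0.000874) and ITGAV, a vitronectin receptor chain, by 0.92, while the adhesion plaque proteins LPXN, TNS4 and VCL (vinculin) fell by 2.73, by 1.03 and by 0.86. Of the 18 members without the word AAAGGAA 1 fell. Among 15 matrix proteases and inhibitors 6 rose and 2 fell (2 and 1 with any 1 library left out), with MMP7 first and MMP1, the interstitial collagenase, at 1.46. Of 10 Src family kinases and partners 3 rose and 4 fell, but 0 rose with any 1 library left out or with no filter on low values, and 1 with YCC10 libraries alone; besides LCK, LYN fell by 0.68 and PTK2B, a relative of focal adhesion kinase, by 0.69. RAB GTPases had 7 of 41 higher and 9 lower, against 15.3% and 26.5% of all tested genes; median-of-ratios scaling gave 11 higher and 5 lower, quantile normalization 5 lower, and 5 were lower with any 1 library left out. RAB22A, of endosome sorting, fell by 1.13 beside RAB8A, whereas RAB5B and RAB7A, of early and late endosomes, rose by 0.93 and 0.75.

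In growth factor signaling the receptors MET, ERBB3 and ERBB2 rose by 1.35, 0.69 and 0.64, and MST1R and IGF1R fell by 0.88 and by 0.77 (3 of 13 higher, 5 lower in the list, or 3 lower after quantile normalization). Beside the list counts of this paragraph, 15.3% of all tested genes rose and 26.5% fell. MET, the hepatocyte growth factor receptor, stood at 23.3 and 23.4 FPKM with siCtrl and 64 and 57.9 FPKM with siMYB. Of 20 immediate early genes 7 fell and 3 rose, but 6 rose after median-of-ratios scaling; EGR1 fell by 0.67 and IER3 by 0.72, and JUND rose by 0.68. The ERK-induced genes ETV4 and DUSP4 fell by 0.79 and by 0.75, and ETV5 rose by 0.48. In WNT signaling 9 of 25 genes rose and 5 fell: DKK1, a secreted inhibitor, fell from 214 and 211 FPKM to 86.2 and 85.7 FPKM (-1.30, SE 0.043, adjusted p = 9.45e-05), and DKK4, its relative, rose by 0.80. TCF7 was at 15.9 and 16.1 FPKM with siCtrl and 14.5 and 16.2 FPKM with siMYB and did not pass (-0.05, adjusted p = 0.668). In BMP and TGF-beta signaling 4 of 23 rose and 4 fell; the ligand BMP4 rose from 0.837 and 1.12 FPKM to 4.75 and 5.52 FPKM (1.63) and the decoy receptor BAMBI from 91.5 and 87.2 FPKM to 225 and 211 FPKM (1.28), while the ligand BMP2 fell by 0.55.

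Inflammation and cell death genes were mixed as well, beside 15.3% of all tested genes higher and 26.5% lower. Of 30 NF-kB genes and chemokines 9 rose and 9 fell. CXCL8, the neutrophil attractant, fell from 229.8 and 214 FPKM to 117 and 109 FPKM (-0.97, SE 0.14, adjusted p = 0.00336), CCL20 and IL18 fell by 0.95 and by 0.96, and CXCL17 and CXCL5 rose by 1.21 and 0.96. RELA did not pass (-0.14, adjusted p = 0.47), but passed as lower with a replicate block within each line (adjusted p = 0.023) or shared (adjusted p = 0.0343). Of 21 TNF ligands and receptors 4 rose and 3 fell; TNFSF15, which acts on T cells, rose by 1.26, and TNFRSF10A, a receptor for TRAIL, fell by 0.62. In the BCL2 family 4 of 17 rose and 3 fell. BMF, which promotes apoptosis, rose from 5.73 and 6.41 FPKM to 20.5 and 23.9 FPKM (1.71, SE 0.09, adjusted p = 0.000196), MCL1, which blocks it, from 27.9 and 25.5 FPKM to 63.8 and 55.8 FPKM (1.13), and BIK by 0.94; BCL2L11 (BIM) and PMAIP1 (NOXA) fell by 0.71 and by 0.61. BCL2L1 did not pass (-0.05, adjusted p = 0.713).

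The same siRNA pair in SNU719 allowed a test of the difference of effect, which passed for 2297 genes (19.0%), 1046 with the YCC10 effect above that of SNU719 (8.65%) and 1251 below (10.3%). The balance turned with scaling: 1263 lay above and 1035 below after median-of-ratios scaling, and 985 and 747 after quantile normalization. Across all tested genes, short RNA genes included, the log2 changes in YCC10 and SNU719 correlated at 0.18. MYB fell further in YCC10 (difference -1.26, SE 0.16, adjusted p = 0.00671); in SNU719 it was at 45.7 and 44.2 FPKM with siCtrl and 9.66 and 8.45 FPKM with siMYB. REG1A, which rose in YCC10, was at 1.54 and 0.585 FPKM with siCtrl and 0.0964 and 0 FPKM with siMYB in SNU719 (difference 3.91, SE 0.39, adjusted p = 0.0036). ALDH1A1 rose in YCC10 and was at 82.1 and 77.4 FPKM with siCtrl and 26.1 and 27.4 FPKM with siMYB in SNU719 (3.43, SE 0.084, adjusted p = 0.00016). The reverse held for REG4 (-2.94, SE 0.094, adjusted p = 0.000333), at 151 and 153 FPKM with siCtrl and 324 and 308 FPKM with siMYB in SNU719, and for TNS4 (-2.98, SE 0.14, adjusted p = 0.000835), at 3.83 and 4.15 FPKM with siCtrl and 18.4 and 18 FPKM with siMYB. PCP4, LOXL1 and the class II genes HLA-DRA and HLA-DRB1 had YCC10 effects above those of SNU719 by 3.15, 2.47, 2.40 and 3.05. The HLA values rest on several summed rows, so their size is uncertain. On the highest row alone the YCC10 change was 1.42 for HLA-DRA and 0.36 for HLA-DRB1. By gene list, the difference passed for 16 of 53 replication, 16 of 60 kinetochore and spindle, 24 of 62 nucleolar, 15 of 25 ATF4, 13 of 20 immediate early and 5 of 13 class II genes.

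**Figure D5:**
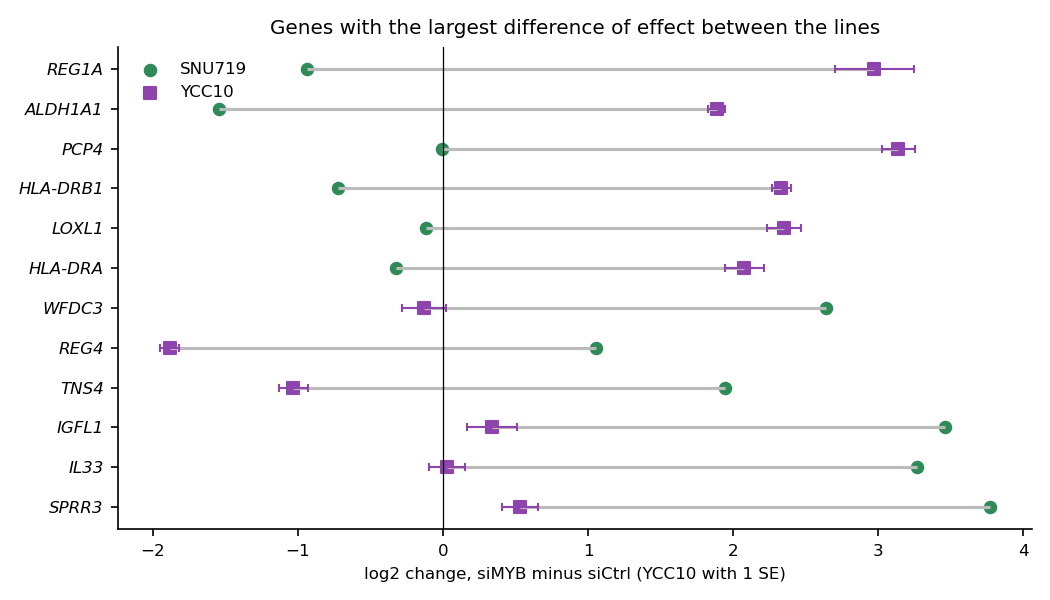
Log2 change after siMYB in YCC10 (with 1 SE) and in SNU719 for the genes with the largest tested difference of effect. REG1A, ALDH1A1 and PCP4 lie to the right in YCC10 (2.97, 1.89 and 3.14) and SPRR3 and IL33 to the right in SNU719 (3.78 and 3.27).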

How the data were processed

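The 4 YCC10 libraries and 4 SNU719 libraries of the MYB set entered 1 fit. Per the labels' protocols, libraries came from 1 ug of total RNA with a stranded mRNA kit. Per the submitters' processing notes, bcl2fastq 2.20.0, HISAT2 2.1.0 (hg38) and Cufflinks 2.2.1 were used; the annotation is not given in the sources used here. The authors deposited FPKM for 33648 rows in 16 libraries; the 2097 symbols on several rows were summed (28167 symbols). Depth is unknown. limma 3.58.1 in R 4.3.3 (lmFit, eBayes with trend) took log2(FPKM + 1) of each gene averaging 1 FPKM or more over these 8 libraries, with 4 group means (4 residual degrees of freedom), Benjamini-Hochberg adjustment and a threshold of 0.05. The fit was also run on simulated data with independent noise and few changed genes, which does not test the calls made here.

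The gene lists, named genes and the searches for motifs and 7-base words were chosen with earlier results of these data known. Named are MYB, the 15 largest robust changes per direction at a mean of at least 5 FPKM (adjusted p under 0.05 also with any 1 YCC10 library left out, groups not overlapping, no short RNA genes), up to 5 such members per list plus up to 3 that did not meet the rule, the 6 largest line differences per direction, markers and neighbors of MYB. Some genes that met this rule, and 1 list, are not reported here. Of the symbols, 97.9% matched RefSeq or GENCODE v29 names. Alternatives were 18 settings: pseudocount, filters, scaling, replicate block, row choice, trend, samples fitted and each library left out.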

Additional observations from a re-analysis of the deposited data

Results flagged for a closer look

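A difference of effect between YCC10 and SNU719, tested as an interaction in limma, passed for 2297 genes. The log2 effect in YCC10 minus that in SNU719 was -1.26 for MYB, 3.15 for PCP4, 3.91 for REG1A, 2.47 for LOXL1, 3.05 for HLA-DRB1, 2.4 for HLA-DRA and 3.43 for ALDH1A1. It was -2.94 for REG4 and -2.98 for TNS4. The values of HLA-DRB1 and HLA-DRA rest on several summed rows, so their size is uncertain. Another 4 genes rose in SNU719 and had smaller effects in YCC10. SPRR3, a cornified envelope protein, gave -3.24 and stood at 24.6 and 25.3 FPKM with siCtrl and 33.7 and 39.5 FPKM with siMYB in YCC10. IL33, an epithelial alarmin, gave -3.24 and stayed under 0.03 FPKM in all 4 YCC10 libraries. IGFL1, a secreted ligand, gave -3.12 and stood at 2.98 and 2.87 FPKM with siCtrl and 3.73 and 4.19 FPKM with siMYB. WFDC3, a small secreted protein with protease inhibitor domains, gave -2.77 and did not exceed 0.2 FPKM in YCC10. SNU719 and YCC10 were grown in different media, and the line and the medium cannot be told apart.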

How the results depend on the processing

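The number of genes changed in YCC10 was 5056 as reported and 3414 to 4725 with each of the 8 libraries left out in turn (1173 to 1714 higher, 2241 to 3040 lower). With any 1 YCC10 library left out 65.6% to 72.2% of the genes kept their call. Other settings gave 5071 (pseudocount 0.1), 4931 (no filter), 4012 (a mean of at least 5 FPKM), 5021 (highest row per symbol), 5053 (no trend), 4815 (median-of-ratios), 4359 (quantile) and 3921 (YCC10 libraries only). The replicate numbers do not show that libraries were paired, as the labels name no shared source and each line has 2 pairs. The replicate differences of both YCC10 groups correlated at 0.438 across genes, and at 0.711 without short RNA genes. A replicate block within each line gave 6809 genes in YCC10 (2524 higher, 4285 lower) and a block shared by all groups 6980 (2582 and 4398). The difference between the lines was less stable: with 1 library left out it passed for 972 to 1418 genes (442 to 669 above, 530 to 749 below). The replicate block within each line gave 4352 (1943 above, 2409 below), and the shared block 4750 (2097 and 2653). After quantile normalization 747 lay below. Under either block 43 or 45 ribosomal proteins were lower (17 without it), and CCND1, CDKN1B, HLA-B and RELA passed. No named gene reversed in the settings that fitted it, which were 259 genes in most settings, 258 with the highest row per symbol, 256 with YCC10 libraries only and 229 at a mean of at least 5 FPKM. At most 18 lost their call under any 1 setting (YCC10 siMYB 2 left out) and at most 6 gained one (either block). The log2 change of MYB ranged from -4.01 to -3.30. The causes of these shifts were not tested. FPKM gives no depth, so differences of genes near 0 FPKM may not be detectable.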
